A study of Mus musculus and Acomys cahirinus with 25 samples.

Results

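The genes described here are 10 members of the Notch pathway among the 24500 gene symbols counted in each library. They were chosen by name and comprise 4 receptors (Notch1, Notch2, Notch3 and Notch4), 4 ligands (Jag1, Jag2, Dll1 and Dll4) and 2 target genes (Hes1 and Hey1). A row for each of the 10 was found in all 25 RNA-seq libraries of dorsal wounds or unwounded skin, from which epidermis and dermis had been taken apart. The laboratory mice, mainly C57BL/6J by the study's methods, were sampled at post-wound day 14 (PWD14), and a punch of the geometric wound center was kept apart from the remaining tissue, called the margin. Wild type (WT) laboratory mice gave 2 libraries of center epidermis, 2 of margin epidermis, 5 of center dermis and 2 of margin dermis. A further 2 libraries were center dermis of K14-Cre-Twist1 mice (KO), in which a keratin 14 promoter drives the Cre that removes Twist1, so that the epidermis is the targeted tissue. By the methods, the controls of the transgenic mice were Twist1+/+ mice, and the labels call all controls WT. WT spiny mice (Acomys cahirinus) were sampled as unwounded skin on PWD0 and as whole wounds on PWD14, PWD21 and PWD28. The spiny mouse epidermis gave 1, 2, 2 and 1 libraries on these days and the dermis 2, 1, 2 and 1, which makes 6 of each layer. These days follow the labels, and other material of the study gives slightly different days for the wounded libraries. The labels give no ages. The study describes its RNA-seq replicates as independent without tying libraries to animals, so p-values measure the spread between libraries.

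Levels are given as CPM, the reads on a gene in every 1000000 reads on all genes. Depth was between 19413261 and 86532134 reads on genes in the laboratory mouse libraries and between 5669760 and 34751956 in those of the spiny mouse. A floor of 3 counts, which covers counting error only, corresponded to between 0.0347 and 0.155 CPM in the laboratory mouse and between 0.0863 and 0.529 CPM in the spiny mouse. The layers were checked with marker genes. The summed level of 7 suprabasal keratinocyte markers was between 140122 and 197999 CPM in laboratory mouse epidermis and between 6.95 and 3379 CPM in WT dermis. KO dermis library 2 stood apart with 29008 CPM of the same markers, against 391 CPM in KO dermis library 1. Spiny mouse sums were between 23596 and 44844 CPM in epidermis and between 134 and 1035 CPM in dermis. In the laboratory mouse the epidermis was read paired-end and the dermis single-end, so layer and read type cannot be told apart there, whereas all spiny mouse libraries were single-end. Spiny mouse reads had been aligned to the mouse genome, and the levels of the 2 species were therefore not compared.

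Notch receptors are membrane proteins that are activated by Jagged or Delta-like ligands on a neighboring cell. Ligand binding lets proteases, the last of them gamma-secretase, release the intracellular part of the receptor, which joins the DNA-binding protein RBPJ in the nucleus and switches on target genes such as Hes1 and Hey1, both of which encode repressors of transcription. In the epidermis the pathway is known for moving keratinocytes from the basal layer into differentiation, and in the dermis it is known from blood vessels, where Dll4 and Notch4 belong to endothelial cells and Notch3 to mural cells.

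On mm10, 3 of the genes lie on chromosome 2 (Notch1 at chr2:26457902-26503822, Dll4 at chr2:119325784-119335666 and Jag1 at chr2:137081451-137116520) and 3 on chromosome 17 (Dll1 at chr17:15367354-15376932, Notch3 at chr17:32120820-32166896 and Notch4 at chr17:34564286-34588543). Chromosome 3 holds Hey1 (chr3:8663359-8667038) and Notch2 (chr3:98013538-98150367), chromosome 12 Jag2 (chr12:112907803-112929812) and chromosome 16 Hes1 (chr16:30065357-30067796). To compare levels between genes, CPM was divided by the length of all exons of a gene in kilobases. On this scale the highest median in laboratory mouse epidermis was that of Hes1 at 22.5 CPM per kilobase (range 16.9 to 23.8 over 4 libraries), followed by Notch3 at 15.5 and Notch2 at 13.9, and the ranges of Notch3 (10.4 to 17.1) and Notch2 (9.81 to 14.8) overlapped. In laboratory mouse dermis, the medians of Notch3 (13 CPM per kilobase) and Jag1 (12.5 CPM per kilobase) led, and their ranges over 9 libraries overlapped. Hes1 headed both spiny mouse layers, with medians of 257 CPM per kilobase in epidermis and 106 CPM per kilobase in dermis, and Jag1 came next at 18 and 18.5 CPM per kilobase. These spiny mouse values use mouse exon lengths and reads aligned to the mouse genome, and how far alignment differed between genes was not tested. By the methods, spiny mouse layers were parted after hours in trypsin, a step not described for the laboratory mouse. The part of this step in the levels was not tested. Dll4, Notch4 and Hey1 were the bottom 3 in the epidermis of both species, with medians of 0.242 CPM per kilobase or less.

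The first comparison asked how the genes divide between epidermis and dermis. The genes fell into opposite groups. In both species Dll4, Notch4 and Hey1 were dermal genes, with at most 1.85 CPM in any epidermis library. Hes1 was higher in epidermis in all 3 comparisons, Jag2 and Notch1 in the laboratory mouse center and the spiny mouse, and Notch2 in the laboratory mouse center and margin. Several of these higher calls, given below, depend on the TMM scaling. Log2 fold changes below are from edgeR's quasi-likelihood test after TMM scaling, which sets the bulk of genes in 2 libraries level, with the standard error (SE) and a p-value adjusted over all tested genes by Benjamini-Hochberg (FDR).

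Notch4, an endothelial receptor, was present at 1.63 and 1.65 CPM in center epidermis and at 0 and 0.0925 CPM in margin epidermis. In WT center dermis its lowest, median and highest levels were 33.5, 48.1 and 76.1 CPM, given here as 35.4, 33.5, 48.1, 76.1 and 51.6 CPM in libraries 1 to 5, and margin dermis held 29.7 and 22.0 CPM. No epidermis library came near any dermis library. Notch4 was 18.1-fold lower in epidermis than in dermis of the center (log2 fold change -4.18, SE 0.44, FDR 5.71e-05), where 51.8% of all tested genes were called. In the margin, where 47.7% of tested genes were called, the log2 fold change was -7.79 (SE 0.93, FDR 5.35e-05).

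Dll4, the ligand of vessel tip cells, showed 0.471 and 0.0724 CPM in center epidermis and no read in either margin epidermis library. WT center dermis libraries 1 to 5 held 21.3, 24.7, 20.6, 25.5 and 22.4 CPM, and margin dermis held 22.0 and 14.1 CPM. The groups were again far apart. In the center, Dll4 was 48.3-fold lower in epidermis (log2 fold change -5.59, SE 0.63, FDR 6.38e-05). In the margin, the difference was at least 212-fold against the floor of 3 counts per library (FDR 0.000328).

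Hey1, a target gene that is also known from arteries, had 0.353 and 0.289 CPM in center epidermis and no read in margin epidermis. Its spread in dermis was wider, with 2.08, 15.9, 6.33, 9.47 and 10.4 CPM in WT center dermis and 7.75 and 9.42 CPM in margin dermis. Even the lowest dermis library lay above every epidermis library. The difference was 16.3-fold in the center (log2 fold change -4.02, SE 0.88, FDR 0.00374) and at least 101-fold in the margin (FDR 0.00123).

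The spiny mouse gave the same direction for these 3 genes, in a fit with day as a covariate in which 52.9% of tested genes were called. Notch4 ranged from 0.171 to 0.755 CPM over 6 epidermis libraries and from 2.82 to 23.1 CPM over 6 dermis libraries (log2 fold change -5.01, SE 0.52, FDR 1.56e-05). Dll4 ranged from 0 to 0.718 CPM in epidermis and from 4.94 to 19.1 CPM in dermis (log2 fold change -6.02, SE 0.71, FDR 2.12e-05). Hey1 ranged from 0.191 to 1.85 CPM in epidermis and from 2.65 to 8.97 CPM in dermis (log2 fold change -2.89, SE 0.54, FDR 0.00104). For none of the 3 did the layers overlap. These calls held in both species under every alternative and with any 1 library left out.

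**Figure D1:**
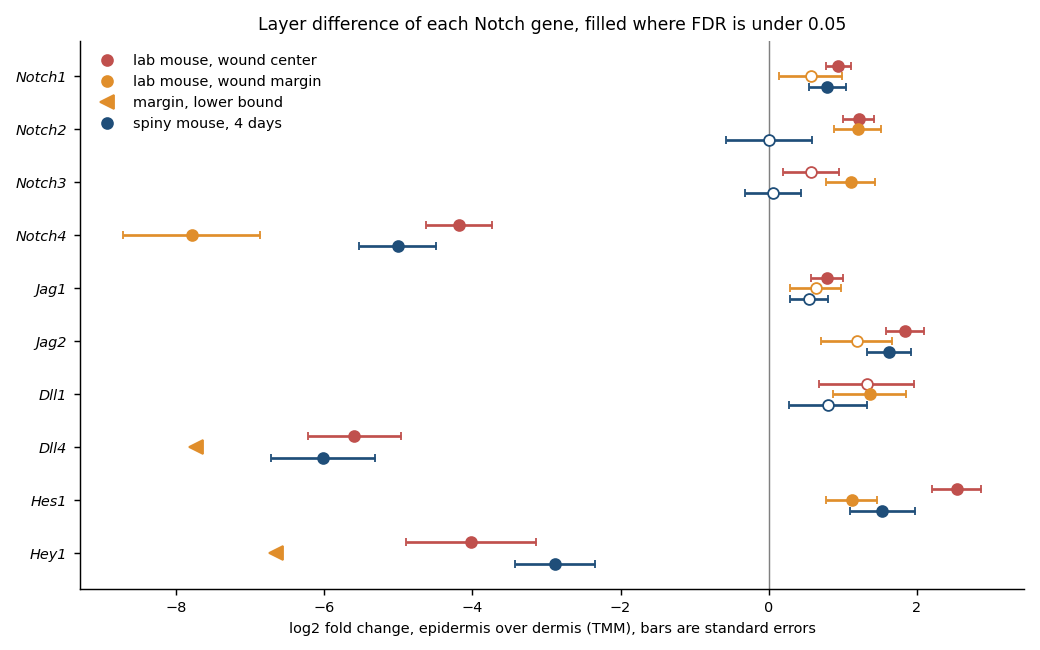
Log2 fold change of epidermis over dermis (horizontal axis) for each of the 10 genes (vertical axis) in the laboratory mouse wound center, the wound margin and the spiny mouse; bars are standard errors, filled circles have an FDR under 0.05, open circles do not, and triangles are lower bounds for genes without a read in margin epidermis. Dll4, Notch4 and Hey1 lie far to the left in all 3 comparisons, and the other 7 genes lie at or right of 0.

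Markers of vessels and of other dermal cells moved with these genes. The summed level of 10 endothelial markers (Pecam1, Cdh5, Kdr, Flt1, Tie1, Tek, Emcn, Cldn5, Vwf and Erg) was between 2.03 and 40.8 CPM in laboratory mouse epidermis and between 806 and 1777 CPM in dermis, and all 10 were lower in epidermis at an FDR under 0.05 in center and margin. In the spiny mouse, the sum was between 10.4 and 23.8 CPM in epidermis and between 154 and 752 CPM in dermis, and 9 of the 10 were lower in epidermis. The 7 mural cell markers moved likewise, from between 3.49 and 69.1 CPM in laboratory mouse epidermis to between 1387 and 2127 CPM in dermis. All 9 fibroblast markers were also lower in epidermis in the center, the margin and the spiny mouse, and of 8 leukocyte markers 6, 6 and 5 were lower and 0, 2 and 2 higher. In bulk tissue, fewer cells of a type and less RNA per cell cannot be told apart, and the part of the markers in the result was not tested.

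**Figure D2:**
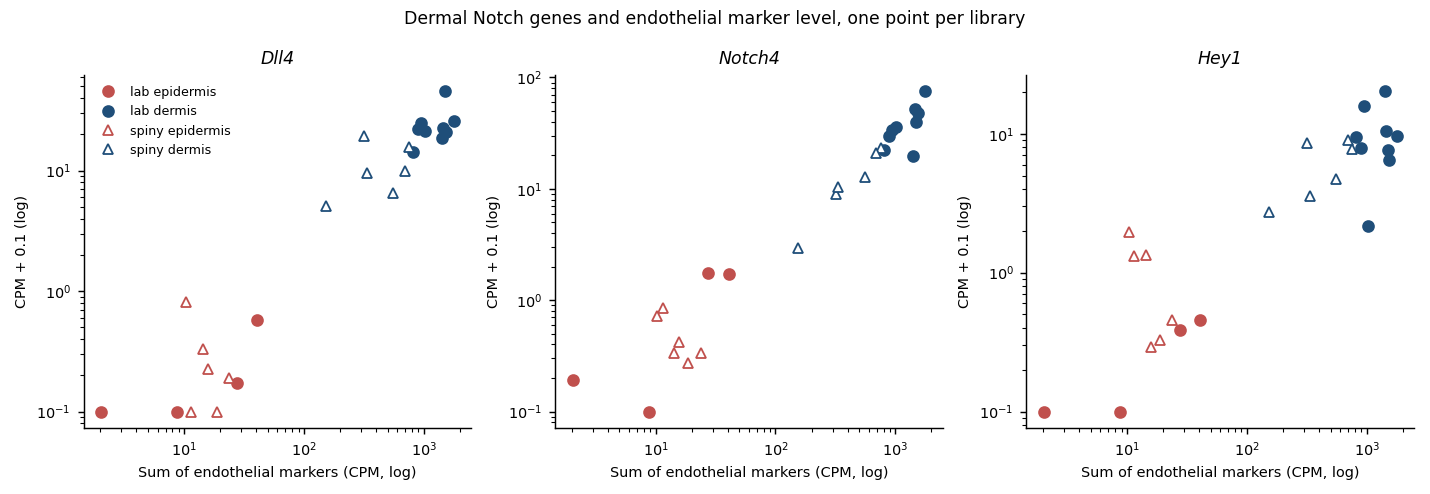
Level of Dll4, Notch4 and Hey1 (CPM + 0.1, log axis) against the summed level of 10 endothelial markers (CPM, log axis), with one point per library; circles are laboratory mouse, triangles spiny mouse, red epidermis and blue dermis. In all 3 panels the dermis libraries, with endothelial sums between 154 and 1777 CPM, sit above the epidermis libraries, with sums between 2.03 and 40.8 CPM.

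Dll4 and Notch4 were the pair with the largest layer differences in the center, and the regions before their start sites are therefore shown, from RefSeq on build GRCm38.p6 (250 bases, 5′ to 3′ on the gene's strand, both on the plus strand). Promoter entries were matched for 8 of the 10 genes, in 9 windows, and Hes1 and Hey1 had none. Capitals mark AGGAAG, or CTTCCT where it lies on the opposite strand, a motif that was chosen after the values were seen. AGGAAG is a longer form of GGAA, the core letters bound by ETS factors.
Notch4, chr17:34564045-34564294: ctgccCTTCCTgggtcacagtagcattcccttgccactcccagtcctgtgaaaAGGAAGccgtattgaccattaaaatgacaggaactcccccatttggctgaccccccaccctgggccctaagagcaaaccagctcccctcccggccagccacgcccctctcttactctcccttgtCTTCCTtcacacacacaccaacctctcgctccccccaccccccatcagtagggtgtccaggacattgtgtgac
Dll4, chr2:119325534-119325783: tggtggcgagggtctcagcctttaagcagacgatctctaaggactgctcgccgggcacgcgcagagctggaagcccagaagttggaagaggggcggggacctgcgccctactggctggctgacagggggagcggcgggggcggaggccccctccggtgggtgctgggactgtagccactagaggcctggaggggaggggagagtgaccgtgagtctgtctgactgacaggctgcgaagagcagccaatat
The Notch4 window held AGGAAG 3 times on either strand, beginning 245, 197 and 73 bases before the start site of its promoter entry. That window ends at chr17:34564294, inside the gene as given above, which begins at chr17:34564286. The Dll4 window did not hold AGGAAG, although it held the shorter GGAA. Of the 9 windows, 2 held AGGAAG (Notch4 and 1 of the 2 windows of Dll1), against 29.5% of 32851 windows of all genes. TGGGAA, the core letters of RBPJ sites, was searched on both strands and was in 0 of the 9 windows, against 21.6% of all windows. A match or its absence describes these letters in this window only.

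Among the genes higher in epidermis, the target gene Hes1 was at 46.6 and 48.5 CPM in center epidermis and at 12.1, 16.9, 9.89, 21.5 and 7.93 CPM in WT center dermis. The groups did not overlap, and Hes1 was 5.80-fold higher in epidermis (log2 fold change 2.54, SE 0.33, FDR 0.000206). In the margin, the levels were 34.4 and 45.2 CPM in epidermis against 30.4 and 34.8 CPM in dermis, which overlapped in CPM (log2 fold change 1.12, SE 0.34, FDR 0.0212). Spiny mouse Hes1 ranged from 357 to 837 CPM in epidermis and from 87.8 to 622 CPM in dermis (log2 fold change 1.53, SE 0.44, FDR 0.0132). The spiny mouse layers overlapped through PWD0 dermis, the highest of the dermis libraries.

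Jag2, a ligand of the basal epidermis, was at 36.6 and 30.0 CPM in center epidermis and between 13.2 and 19.1 CPM in the 5 WT center dermis libraries (log2 fold change 1.84, SE 0.25, FDR 0.000274). In the margin, its epidermis libraries differed from each other (15.1 and 39.3 CPM) and straddled those of dermis (23.6 and 18.4 CPM), and the difference did not pass (log2 fold change 1.18, SE 0.48, FDR 0.0629). Spiny mouse Jag2 ranged from 25.1 to 141 CPM in epidermis and from 9.54 to 43.5 CPM in dermis (log2 fold change 1.62, SE 0.30, FDR 0.000995). Jag1, the second Jagged ligand, was nearer to even between the layers, at 68.9 and 77.2 CPM in center epidermis against 54.0 to 91.0 CPM in center dermis (log2 fold change 0.79, SE 0.22, FDR 0.0135). It did not pass in the margin (log2 fold change 0.63, FDR 0.155) or in the spiny mouse (log2 fold change 0.54, FDR 0.0975).

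Notch1, the main receptor of keratinocyte differentiation, was at 96.7 and 89.4 CPM in center epidermis and between 73.5 and 92.4 CPM in center dermis (log2 fold change 0.93, SE 0.17, FDR 0.00137). Its margin libraries overlapped between layers (log2 fold change 0.56, SE 0.42, FDR 0.301), and in the spiny mouse it was higher in epidermis (log2 fold change 0.79, SE 0.25, FDR 0.0197). Notch2 was at 153 and 159.6 CPM in center epidermis and between 85.8 and 140.4 CPM in center dermis (log2 fold change 1.21, SE 0.21, FDR 0.00115). The margin gave nearly the same Notch2 difference (log2 fold change 1.20, SE 0.32, FDR 0.0108), while the spiny mouse layers were level (log2 fold change 0.00117, SE 0.58, FDR 0.999). Notch3 passed in the margin (log2 fold change 1.10, SE 0.33, FDR 0.0178) and not in the center (log2 fold change 0.57, SE 0.38, FDR 0.232) or the spiny mouse (log2 fold change 0.06, SE 0.37, FDR 0.909). Dll1, the second Delta-like ligand here, passed in the margin (log2 fold change 1.36, SE 0.49, FDR 0.0427) and not in the center (log2 fold change 1.32, SE 0.64, FDR 0.112) or the spiny mouse (log2 fold change 0.80, SE 0.53, FDR 0.225).

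In all, 8 of the 10 genes differed between layers in the laboratory mouse center (5 higher in epidermis, 3 lower), 7 in the margin (4 and 3) and 6 in the spiny mouse (3 and 3), beside backgrounds of 51.8%, 47.7% and 52.9%. By direction, 26.8% of tested genes were higher in epidermis and 25.0% lower in the center, 20.9% and 26.8% in the margin, and 25.3% and 27.6% in the spiny mouse. The higher calls of the laboratory mouse depend on the scaling. Scaled to library size without TMM, which moved the median of all genes by -0.72 (center) and -0.82 (margin) on the log2 scale, the center calls of Notch1 (log2 fold change 0.21), Notch2 (0.49) and Jag1 (0.06) and the margin calls of Notch2 (0.36), Notch3 (0.28), Dll1 (0.55) and Hes1 (0.29) were lost. Jag1 in the center was also lost without either epidermis library (0.86 and 0.68), and the margin calls of Notch2 (1.02 and 1.42), Notch3 (1.40 and 0.87), Dll1 (1.59 and 1.18) and Hes1 (1.09 and 1.17) were lost without either dermis library, where 1 library stood for a group. Margin Dll1 was also lost without epidermis library 2 (0.80), with RLE scaling (1.27) and with the edgeR 3 estimate of the spread (1.35), and a fit of all laboratory mouse libraries lost margin Notch3 (1.07), Dll1 (1.33) and Hes1 (1.09). Calls were gained by margin Notch1 (1.0) and Jag2 (1.66) without epidermis library 1, margin Jag1 (0.88) without epidermis library 2 and center Dll1 (1.03) without dermis library 2. In the spiny mouse, Jag1 (0.72) was called without PWD21 dermis library 2 and Dll1 (1.51) without the PWD14 dermis library, while Notch1 (0.63) and Hes1 (1.14) were lost without the latter.

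Other genes of the pathway were followed with a list of 50 genes around the members, of which 45 were tested in the center. Of these, 13 were higher and 14 lower in epidermis, with a list median of 0.09 beside -0.08 for all genes on the log2 scale. The largest differences were those of Dlk1 (log2 fold change -6.11) and Dlk2 (5.6), a pair of Delta-like relatives without the usual ligand domain, Psen2 (-5.41), a catalytic subunit of gamma-secretase, and the target gene Hey2 (-3.82). In the margin, 13 of 46 were higher and 15 lower, led by Hey2 (-10.32), Dtx1 (-7.71), a ubiquitin ligase that acts on Notch, the sugar transferase Mfng (-7.16) and Dlk1 (-6.07), where the fitted values of genes with no read in a group depend on the prior count. Between the spiny mouse layers, 9 of 45 were higher and 15 lower, led by Numbl (-4.68), an adaptor that restrains Notch, the target gene Heyl (-3.97), Dtx1 (-3.37) and Mfng (-2.77). The 5 sugar-modifying enzymes of the list gave 3 lower and 1 higher in the center, 3 lower and 1 higher in the margin, and 4 lower and 0 higher in the spiny mouse.

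The next comparison asked whether the genes differ between wound center and wound margin at PWD14. None of the 10 was called in either layer. In epidermis, where 1.24% of tested genes were called, 9 of the 10 could be tested and 2 had an unadjusted p under 0.05, as had 23.5% of all tested genes. These were Notch4 (1.63 and 1.65 CPM in center, 0 and 0.0925 CPM in margin, log2 fold change 4.53, SE 0.96, FDR 0.078 by edgeR) and Hey1 (0.353 and 0.289 CPM against no read, at least 3.78-fold higher in center, FDR 0.180 by edgeR). Both were at low levels in center and at or close to 0 in margin. Notch4 was called by DESeq2 (log2 fold change 4.92), in a fit of all laboratory mouse libraries (4.68) and without either margin library. Dll4 was not tested, since 32 and 4 reads fell on it in the 2 center libraries and none in the margin.

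Vessel and connective tissue markers moved the same way in these 4 libraries. The endothelial sum was 40.8 and 27.6 CPM in center epidermis and 8.73 and 2.03 CPM in margin epidermis, the mural sum 69.1 and 50.5 CPM against 14.4 and 3.49 CPM, and the sum of 9 fibroblast markers 5731 and 4743 CPM against 2300.5 and 752 CPM. At an FDR under 0.05 by edgeR, 0 of 10 endothelial, 1 of 7 mural and 1 of 9 fibroblast markers were higher in center and 0 lower. An unadjusted p under 0.05 was reached by 8, 4 and 6 of them. The part of these markers in the Notch4 and Hey1 values was not tested.

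Notch1, Jag2, Dll1 and Jag1 overlapped between center and margin epidermis, and the margin libraries lay far apart. Notch1 was at 40.3 and 93.3 CPM in margin epidermis, on both sides of one of its center values (96.7 and 89.4 CPM; log2 fold change 0.39, SE 0.36, FDR 0.547). Jag2 was at 15.1 and 39.3 CPM in margin and 36.6 and 30.0 CPM in center (log2 fold change 0.19, SE 0.42, FDR 0.808). Dll1 was at 11.5 and 22.4 CPM in margin and 14.4 and 14.3 CPM in center (log2 fold change -0.35, SE 0.35, FDR 0.561). Jag1 went the other way, at 101 and 65.9 CPM in margin and 68.9 and 77.2 CPM in center (log2 fold change -0.30, SE 0.30, FDR 0.567). Notch2, Notch3 and Hes1 were higher in both center libraries than in either margin library, with log2 fold changes of 0.21, 0.38 and 0.16 and FDRs of 0.586, 0.323 and 0.694. Margin library 1 held the lower value for Notch1, Notch2, Notch3, Jag2, Dll1 and Hes1. Without margin library 2, 6 of the 9 genes were called (Notch1 at 1.05, Notch2 at 0.41, Notch3 at 0.57, Jag1 at -0.61 and Jag2 at 0.99, beside Notch4), of 7405 genes called in all. Without margin library 1, Notch4 and Dll1 (-0.67) were called, of 5508 genes in all.

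In dermis, where 0.850% of tested genes were called, all 10 were tested, none was called by edgeR or DESeq2 and 1 had an unadjusted p under 0.05 (15.8% of all tested genes). This was Hes1, at 12.1 and 16.9 CPM in the 2 center libraries of that comparison and 30.4 and 34.8 CPM in margin (log2 fold change -1.09, SE 0.39, FDR 0.236 by edgeR). The groups did not overlap, and the other 3 WT center dermis libraries (9.89, 21.5 and 7.93 CPM) also lay below both margin libraries. Epidermal and follicle markers were also higher in margin dermis, where the suprabasal sum was 1394 and 3379 CPM against 211 and 361 CPM in the center pair, and the sum of 11 hair follicle markers 715 and 897 CPM against 81.0 and 62.3 CPM; their part in the Hes1 values was not tested. Notch4 was at 35.4 and 33.5 CPM in center and 29.7 and 22.0 CPM in margin (log2 fold change 0.50, SE 0.34, FDR 0.544). The receptors Notch1 to Notch3 and the ligands Jag1, Jag2 and Dll4 had log2 fold changes between -0.54 (Jag2) and 0.43 (Dll4) with FDRs of 0.635 or more. Dll1 and Hey1 were set by 1 library each: Dll1 was at 12.4 and 1.08 CPM in center and 12.8 and 10.5 CPM in margin, and Hey1 at 2.08 and 15.9 CPM in center and 7.75 and 9.42 CPM in margin.

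The 5 WT center dermis libraries fell into 2 sets, which the study used for its region comparison (libraries 1 and 2) and its genotype comparison (libraries 3 to 5), and the sets may differ in the kind of control mouse, which cannot be told apart from the set. Notch3 was at 101 and 76.4 CPM in the first set and 181, 241 and 160.3 CPM in the second, with no overlap. Notch4 was at 35.4 and 33.5 CPM in the first and 48.1, 76.1 and 51.6 CPM in the second. Notch2 too was lower in the first set (85.8 and 96.5 CPM) than in the second (107, 140.4 and 126 CPM). With the second set alongside the first, the region difference of Notch2 turned from -0.02 to 0.36 on the log2 scale, and with only the first set the center layer difference of Notch3 was 1.41 and called.

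**Figure D3:**
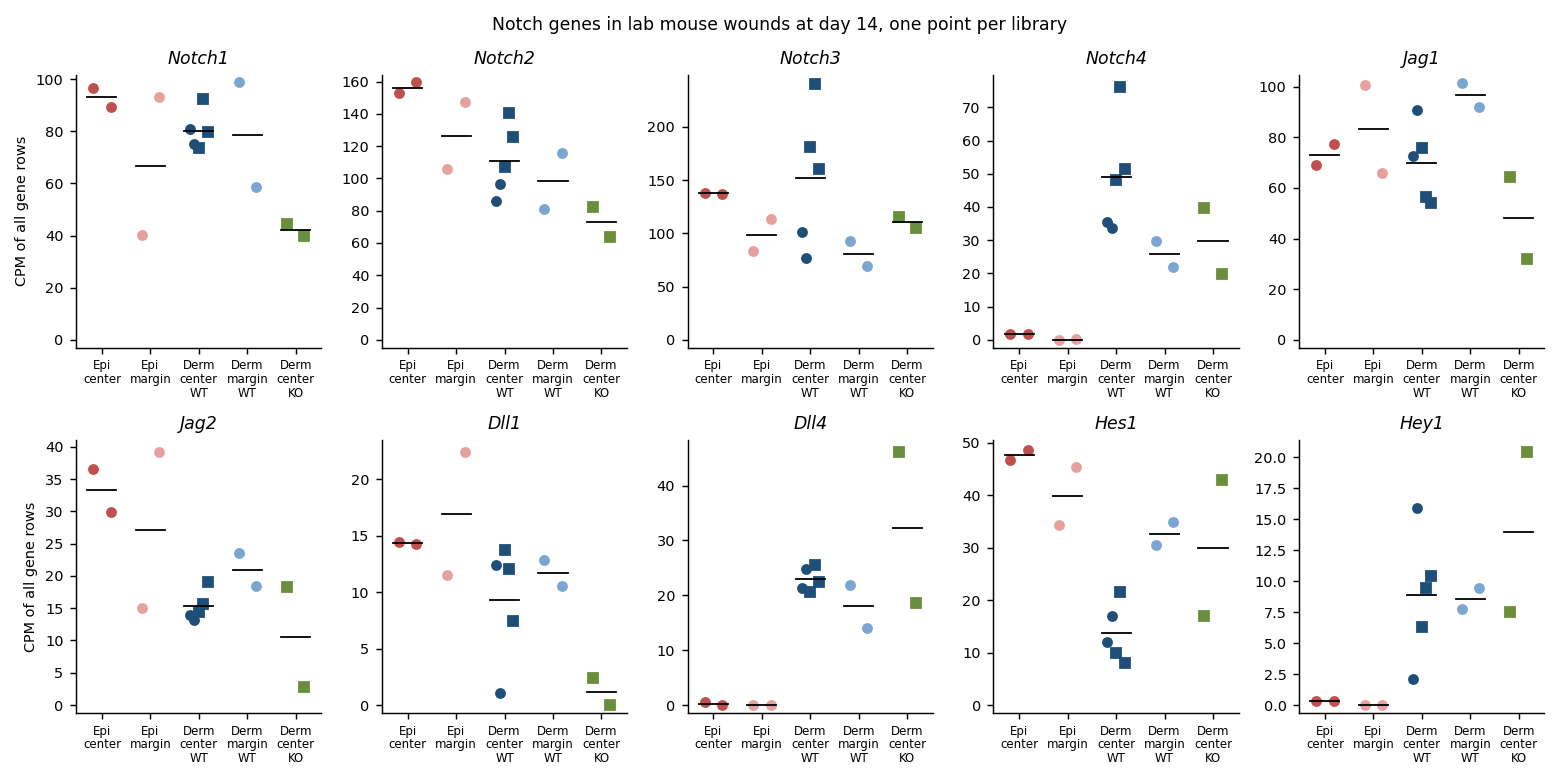
Level of each gene (CPM, vertical axis from 0) in the 13 laboratory mouse libraries at PWD14, one point per library, with lines at group means; squares mark the center dermis libraries of the genotype comparison (WT libraries 3 to 5 and both KO libraries) and circles all others. Dll4, Notch4 and Hey1 lie near 0 in epidermis, and Notch1 and Dll1 in the KO libraries lie below the 3 WT squares.

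Whether the region difference itself differed between layers was tested as an interaction term, for which 3.48% of tested genes and none of the 10 were called. An unadjusted p under 0.05 was reached by 16.0% of tested genes and by 2 of the 10, Notch4 (log2 difference of differences 4.16, SE 1.09, FDR 0.063) and Hes1 (1.39, SE 0.40, FDR 0.0949), and Hes1 (1.57) was called without margin epidermis library 2. DESeq2 called 3 of the 10, namely Notch4, Dll4 and Hey1, for the last 2 of which the margin epidermis held no read. On the list of other pathway genes, 0 of 44 were called between center and margin in epidermis, 0 of 45 in dermis and 0 of 47 in the interaction. At an unadjusted p under 0.05 these counts were 7, 7 and 4.

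The third comparison set KO against WT center dermis. Twist1 itself was at 73.4 and 44.0 CPM in KO dermis and at 57.7, 36.3 and 105 CPM in WT dermis (log2 fold change -0.19, SE 0.47, FDR 0.885), which does not check the deletion, because Cre is driven by an epidermal promoter. None of the 10 Notch genes was called, beside 0.0565% of all tested genes, and 5 had an unadjusted p under 0.05, beside 11.5% of all tested genes. All 4 receptors were among these 5, each with a lower mean in KO.

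Notch1 was at 44.4 and 39.9 CPM in KO and at 73.5, 92.4 and 79.6 CPM in WT dermis. The groups did not overlap, and the log2 fold change was -0.96 (SE 0.27, FDR 0.276 by edgeR). Notch2 was at 82.1 and 63.7 CPM in KO and 107, 140.4 and 126 CPM in WT (log2 fold change -0.77, SE 0.26, FDR 0.340). Notch3 was at 116 and 105 CPM in KO and 181, 241 and 160.3 CPM in WT (log2 fold change -0.81, SE 0.25, FDR 0.305). Notch4 was at 39.7 and 19.7 CPM in KO and 48.1, 76.1 and 51.6 CPM in WT (log2 fold change -0.96, SE 0.40, FDR 0.422). In each of these receptors both KO libraries lay below all 3 WT libraries of this comparison. The other pair of WT center dermis libraries lay above both KO libraries for Notch1 (80.7 and 75.1 CPM) and Notch2 (85.8 and 96.5 CPM), but below both for Notch3 (101 and 76.4 CPM) and between them for Notch4 (35.4 and 33.5 CPM).

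The fifth gene was Dll1, at 2.4 and 0 CPM in KO and 13.7, 12 and 7.48 CPM in WT (log2 fold change -3.21, SE 1.16, FDR 0.361 by edgeR). KO library 2 held no read of it, which allows up to 3 counts, and KO library 1 held 51 reads. A level this low was not limited to KO, since WT center dermis library 2, outside this comparison, was at 1.08 CPM. Hes1 was at 16.9 and 42.9 CPM in KO and 9.89, 21.5 and 7.93 CPM in WT (log2 fold change 1.22, SE 0.59, FDR 0.457). Dll4 (46.0 and 18.6 CPM in KO), Hey1 (7.48 and 20.4 CPM), Jag2 (18.2 and 2.81 CPM) and Jag1 (64.3 and 32.0 CPM) differed more between the 2 KO libraries than KO differed from WT, with FDRs between 0.658 and 0.731.

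The KO libraries were unlike in composition. KO library 2 held 8462 CPM of 7 basal and 29008 CPM of 7 suprabasal keratinocyte markers, KO library 1 held 760.3 and 391 CPM, and the 3 WT libraries held between 142 and 248 CPM and between 6.95 and 31.7 CPM. Endothelial sums were alike, at 1494 and 1406 CPM in KO and between 1453 and 1777 CPM in WT. With KO library 1 alone, 0 of the 10 genes were called, and with KO library 2 alone 7 were (of 27 and 3353 genes called in all, respectively). DESeq2, which called 787 genes, called 3 of the 10: Notch1 (log2 fold change -0.93), Notch2 (-0.75) and Notch3 (-0.79). Without KO library 2 the log2 fold changes of Notch1, Notch2, Notch3 and Notch4 were -0.84, -0.56, -0.70 and -0.51. Of the other pathway genes, 0 of 44 were called and 6 had an unadjusted p under 0.05, with a list median of 0.05 beside -0.07 for all genes on the log2 scale.

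In the spiny mouse, the comparisons asked how the genes move over the course of the wound, from unwounded skin (PWD0) to PWD28. In epidermis, Notch1, Notch2, Notch3, Jag1, Jag2 and Dll1 had higher CPM at PWD0 and PWD28 than at PWD14 and PWD21, while Hes1 did not. In dermis, Dll1 was higher and Hes1 lower at PWD14 and PWD21 than at PWD0. PWD0 epidermis, PWD14 dermis and PWD28 of both layers were 1 library each. A comparison with PWD0 epidermis or PWD14 dermis has no replicate check in that arm, and its SE and FDR take the lone library to vary as the other groups did. PWD28 is given as values only.

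Jag2 in epidermis was at 141 CPM at PWD0, 31.9 and 25.1 CPM at PWD14, 41.5 and 34.6 CPM at PWD21 and 106 CPM at PWD28. Against the single PWD0 library its log2 fold changes were -1.59 (SE 0.40, FDR 0.0115) at PWD14 and -1.68 (SE 0.40, FDR 0.024) at PWD21, comparisons in which 35.4% and 11.5% of tested genes were called. Dll1 was at 68.0 CPM at PWD0, 21.3 and 15.6 CPM at PWD14, 27.1 and 31.3 CPM at PWD21 and 53.6 CPM at PWD28. Its log2 fold changes were -1.16 (SE 0.32, FDR 0.0172) at PWD14 and -1.02 (SE 0.32, FDR 0.0632) at PWD21. For both ligands the 4 wound libraries of PWD14 and PWD21 lay below the single libraries of PWD0 and PWD28.

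Notch2 was at 173 CPM at PWD0, 57.8 and 28.5 CPM at PWD14, 28.4 and 36.0 CPM at PWD21 and 124 CPM at PWD28. Against the single PWD0 library its log2 fold changes were -2.22 (SE 0.47, FDR 0.016) at PWD21 and -1.27 (SE 0.48, FDR 0.0592) at PWD14. Notch1 was at 244 CPM at PWD0, 68.4 and 59.7 CPM at PWD14, 98.0 and 109.5 CPM at PWD21 and 374 CPM at PWD28. Its log2 fold changes against PWD0 were -1.21 (SE 0.43, FDR 0.0505) at PWD14 and -1.03 (SE 0.43, FDR 0.145) at PWD21. Notch3 ran from 185 CPM at PWD0 through 69.4 and 36.9 CPM at PWD14 and 74.4 and 61.8 CPM at PWD21 to 180.4 CPM at PWD28, with log2 fold changes of -1.07 (FDR 0.178) and -1.24 (FDR 0.187). Jag1 was at 183 CPM at PWD0, between 83.3 and 107 CPM at PWD14 and PWD21, and at 227 CPM at PWD28 (FDRs of 0.549 and 0.226). In every one of these genes the PWD0 and PWD28 libraries were the highest pair in CPM. After TMM scaling, the log2 fold changes of Jag1 against PWD0 were only -0.26 at PWD14 and -0.60 at PWD21.

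Between PWD14 and PWD21 in epidermis, where 46.6% of tested genes were called, 7 of the 10 genes could be tested and 2 were called, both higher at PWD14, as were 23.4% of tested genes. Hes1 was at 553 and 679.6 CPM at PWD14 and 467 and 357 CPM at PWD21, with no overlap (log2 fold change 1.13, SE 0.18, FDR 0.000618). At PWD0 it was at 493 CPM and at PWD28 at 837 CPM, so that in CPM PWD0 lay among its PWD14 and PWD21 values. Notch1, Notch2 and Notch3 had higher CPM at PWD0 than in all 4 of those libraries. After TMM scaling, the log2 fold changes of Hes1 against the single PWD0 library were 1.03 at PWD14 and -0.06 at PWD21, neither called. Between PWD14 and PWD21, Notch2 was called as well (log2 fold change 0.99, SE 0.30, FDR 0.0189), although its CPM values overlapped. Without TMM, which moved the median of all genes by -0.55 on the log2 scale, the Notch2 difference was 0.42 and not called, and Notch1 (-0.70) and Dll1 (-0.67) were called lower at PWD14. Leaving out PWD14 library 1 brought Notch2 to 0.34 and leaving out PWD21 library 1 brought it to 0.82, and fitting all 12 spiny mouse libraries together brought Hes1 to 1.09 and Notch2 to 0.95, none of them called. Without PWD14 library 2, Notch3 (0.61) and Jag1 (0.55) were called as well.

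The comparisons of both days share the single PWD0 epidermis library. Notch1 (-1.17) and Notch2 (-1.23) at PWD14 and Dll1 (-1.09) at PWD21 were called by DESeq2. Notch1 (-1.21) and Notch2 (-1.27) were also called at PWD14 without a filter on low counts, and Notch2 (-1.92) without PWD14 library 1. Without TMM, which moved the median of all genes by -0.71 at PWD14 and -0.18 at PWD21, Notch1 (-1.93), Notch2 (-2.0), Notch3 (-1.80) and Jag1 (-0.98) were called at PWD14 and Dll1 (-1.22) at PWD21. The calls at PWD14 of Jag2 (-1.39) and Dll1 (-0.92) were lost without PWD14 library 2, and those at PWD21 of Notch2 (-2.10 and -2.38) and Jag2 (-1.87 and -1.55) without either PWD21 library. The sum of 11 hair follicle markers was lower at PWD14 and PWD21 than at PWD0 and PWD28, like the receptors and ligands. It was 3385 CPM at PWD0, 385 and 402 CPM at PWD14, 1562 and 925 CPM at PWD21 and 23895 CPM at PWD28. The median of the 11 markers was 23.9 CPM at PWD0 and 4.57 and 9.32 CPM at PWD14. At PWD21 this median was 80.9 and 47.5 CPM, above PWD0, and at PWD28 it was 883 CPM. The part of these markers in the receptor and ligand values was not tested. The adipocyte marker sum also differed by day in epidermis. It was 38.0 CPM at PWD0, 6303 and 5160 CPM at PWD14, 1350 and 1053 CPM at PWD21 and 93.4 CPM at PWD28. Few of the 5 markers carried this sum, as their median was 0.155 and 0.128 CPM at PWD14. Between PWD14 and PWD21, 2 of the 5 could be tested, and 1 was higher and 1 lower at PWD14. The part of adipocyte markers was not tested either.

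**Figure D4:**
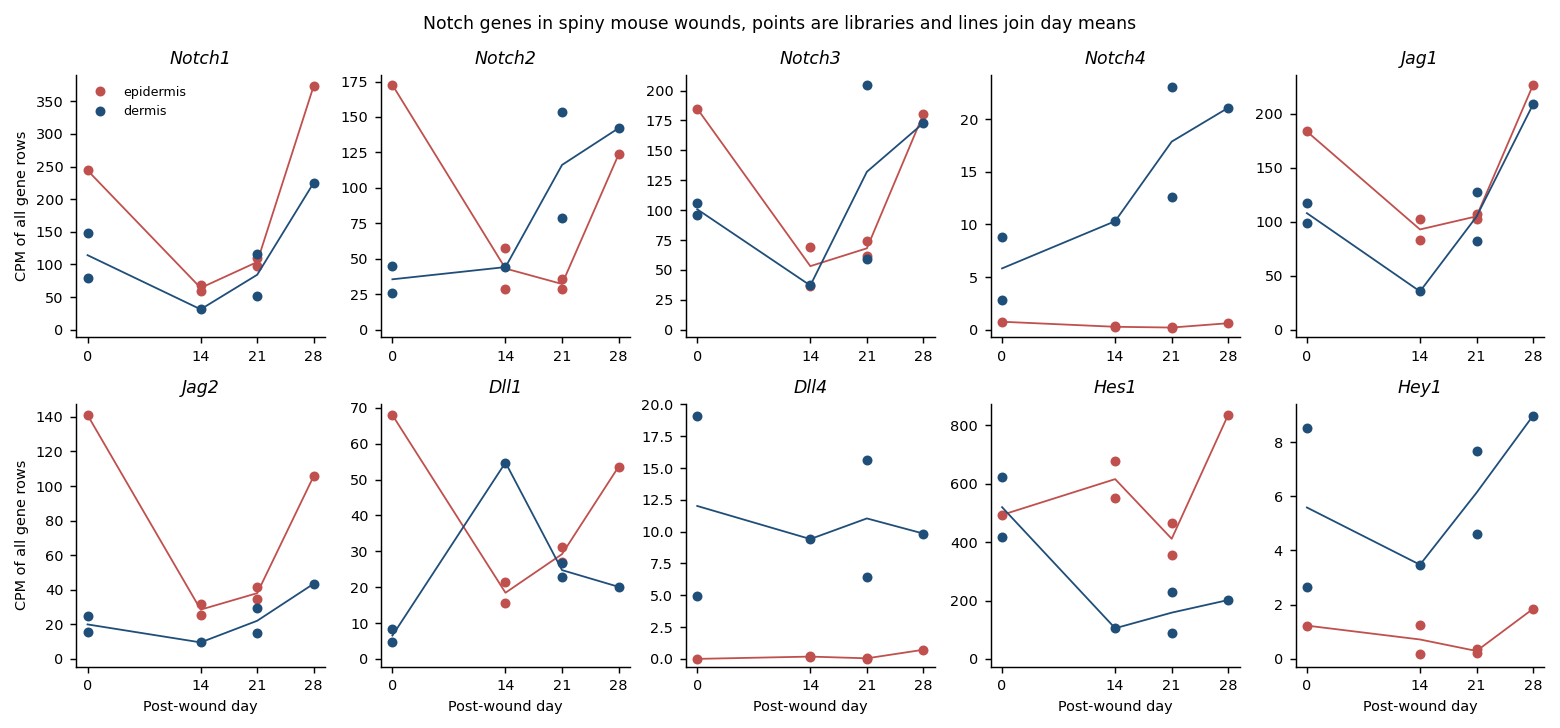
Level of each gene (CPM, vertical axis) against post-wound day in spiny mouse epidermis (red) and dermis (blue), one point per library, with lines through day means. The epidermal curves of Notch1, Notch2, Notch3, Jag1, Jag2 and Dll1 are high at both ends and low at PWD14 and PWD21, dermal Dll1 peaks at 54.8 CPM at PWD14, and dermal Hes1 drops from 417 and 622 CPM at PWD0 to 105 CPM at PWD14.

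In dermis, Dll1 had the largest log2 fold change of the 10 genes at both days. It was at 4.76 and 8.23 CPM at PWD0, 54.8 CPM at PWD14, 26.8 and 22.7 CPM at PWD21 and 20.1 CPM at PWD28. No wound library overlapped unwounded dermis. The single PWD14 library was 9.92-fold above PWD0 (log2 fold change 3.31, SE 0.34, FDR 0.000125), and the PWD21 libraries were 3.59-fold above PWD0 (log2 fold change 1.84, SE 0.36, FDR 0.0087), comparisons in which 26.6% and 26.2% of tested genes were called. At PWD14 the dermis library (54.8 CPM) lay above both epidermis libraries (21.3 and 15.6 CPM).

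Hes1 in dermis was at 417 and 622 CPM at PWD0, 105 CPM at PWD14, 87.8 and 229 CPM at PWD21 and 202 CPM at PWD28. Both unwounded libraries were above all 4 wound libraries. Keratinocyte markers were likewise highest in unwounded dermis, with basal sums of 5553 and 3858 CPM at PWD0 and between 518 and 1880 CPM in the wound libraries, and suprabasal sums of 1005 and 1035 CPM against 134 to 702 CPM. At PWD21, 4 of 7 basal, 4 of 7 suprabasal and 5 of 5 adipocyte markers were called lower than at PWD0, and their part in the Hes1 values was not tested. Its log2 fold changes were -2.06 (SE 0.54, FDR 0.0178) at PWD14 and -1.79 (SE 0.46, FDR 0.0236) at PWD21. Hey1, the other target, was at 2.65 and 8.52 CPM at PWD0, 3.47 CPM at PWD14, 4.61 and 7.65 CPM at PWD21 and 8.97 CPM at PWD28, with log2 fold changes of -0.45 (FDR 0.692) and 0.08 (FDR 0.928).

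Notch1, a receptor, and Jag1, a ligand, were lower in the single PWD14 library than in both PWD0 libraries and were not called at PWD21. Notch1 was at 79.5 and 149 CPM at PWD0, 31.2 CPM at PWD14, 52.2 and 116 CPM at PWD21 and 225 CPM at PWD28, with log2 fold changes of -1.62 (SE 0.49, FDR 0.0329) at PWD14 and -0.50 (SE 0.42, FDR 0.397) at PWD21. Jag1 was at 98.6 and 117 CPM at PWD0, 35.4 CPM at PWD14, 82.4 and 127 CPM at PWD21 and 209 CPM at PWD28, with log2 fold changes of -1.37 (SE 0.34, FDR 0.0143) and -0.14 (SE 0.30, FDR 0.766). For both genes the PWD14 library was the lowest and the PWD28 library the highest of the 6.

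Notch2 rose in dermis by PWD21. It was at 26.1 and 45.0 CPM at PWD0, 44.2 CPM at PWD14, 78.9 and 153 CPM at PWD21 and 142 CPM at PWD28 (log2 fold change 1.64, SE 0.39, FDR 0.017 at PWD21, and 0.56, SE 0.49, FDR 0.424 at PWD14). Notch4 was at 2.82 and 8.82 CPM at PWD0, 10.3 CPM at PWD14, 12.6 and 23.1 CPM at PWD21 and 21.1 CPM at PWD28, so that all wound libraries were above both unwounded ones (log2 fold change 1.56, SE 0.53, FDR 0.0597 at PWD21, and 1.06, SE 0.56, FDR 0.184 at PWD14). At PWD21 Notch4 was called by DESeq2 (1.54), in a fit of all 12 libraries (1.61) and without PWD0 library 2 (2.44). Dll4 overlapped across all days, from 4.94 to 19.1 CPM, both of these at PWD0. Notch3 (59.2 and 205 CPM at PWD21) and Jag2 (14.8 and 29.3 CPM at PWD21) also spanned their unwounded values at PWD21.

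Summed endothelial markers were lower in unwounded dermis than in wound dermis. These sums were 154 and 319 CPM at PWD0, 334 CPM at PWD14, 557 and 752 CPM at PWD21 and 692 CPM at PWD28. Mural sums were 1101 and 3928 CPM at PWD0, 599 CPM at PWD14, 1210 and 1512 CPM at PWD21 and 1145 CPM at PWD28. The highest mural sum was thus in unwounded dermis. In the PWD21 comparison 4 of the 10 endothelial markers were higher and 0 lower, and 3 of the 7 mural markers were higher and 1 lower. The part of these markers in the Notch4 values was not tested. Hair follicle sums were 4686 and 5454 CPM at PWD0, 111 CPM at PWD14, 2010 and 2240 CPM at PWD21 and 30331 CPM at PWD28. These sums were lowest and highest on the same days as Notch1 and Jag1. The median of the 11 markers was not, with its lowest (3.88 CPM) and highest (235 CPM) values both at PWD0. The part of these markers in the Notch1 and Jag1 values was not tested. The calls at PWD21 of Notch2 (1.05 without library 2), Dll1 (1.78 without library 1) and Hes1 (-1.22 without library 1) were each lost when that PWD21 library was left out, and Notch1 at PWD14 (-1.22) when PWD0 library 2 was. Both dermis comparisons share the PWD0 libraries.

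Among the other pathway genes, between PWD14 and PWD21 in epidermis, 9 of 43 listed genes were higher at PWD14 and 9 lower, beside 46.6% of all tested genes called. Among them were Psenen (log2 fold change 2.32) and Ncstn (-1.46), subunits of gamma-secretase that went opposite ways, and the sugar transferase Poglut1 (-1.32). Of 7 protease genes tested, 2 were higher and 5 lower. Psenen was at 11.9 and 8.04 CPM at PWD14 and 3.22 and 2.4 CPM at PWD21, with no overlap. Against PWD0, 3 of 49 were higher and 9 lower at PWD14, led by Psenen (3.12), the fucosyltransferase Pofut1 (-2.04) and the ligand ubiquitin ligases Mib2 (-2.01) and Mib1 (-1.88). At PWD21, 0 of 49 were higher and 6 lower, among them the corepressor Spen (-2.13), Mib1 (-1.95) and Mib2 (-1.73). In dermis, 7 of 46 were higher and 5 lower at PWD21, led by Numbl (2.35), the ubiquitin ligase Dtx3l (2.20), Psenen (-2.05) and Heyl (1.93), and 7 of 49 higher and 4 lower at PWD14, led by Numbl (2.53), the acetyltransferase Kat2b (-2.26), Dtx1 (-1.95) and Heyl (1.93). List medians were between -0.37 and 0.28 in these comparisons and those of all genes between -0.13 and 0.03 on the log2 scale.

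The genes whose pattern was most like that of a member were ranked by Pearson's r of log2(TMM CPM + 1) over all libraries of a species, a measure that the difference between epidermis and dermis dominates. For Notch4 these were Fat4 (r = 0.997), Robo4 (0.993) and Mmp14 (0.993) over 13 laboratory mouse libraries, and Vwf (0.995), Pear1 (0.990) and Iffo1 (0.990) over 12 spiny mouse libraries. For Dll4 they were Ramp2 (0.990), Gimap6 (0.989) and Ccl2 (0.989) in the laboratory mouse and Fam155a (0.990), Hoxd9 (0.984) and Itih3 (0.982) in the spiny mouse. For Hes1 they included Sp6 (0.985) and Epha1 (0.980) in the laboratory mouse and were, in the spiny mouse, Zfp296 (0.967), Ifrd1 (0.963) and Ier2 (0.962). For Hey1 they were the related gene Hes6 (0.986), Cyp4f16 (0.974) and Clec10a (0.967), and in the spiny mouse Fgf11 (0.985), Iqsec1 (0.961) and Slc1a5 (0.956). For the other 6 genes the best r was between 0.939 (Dll1) and 0.975 (Notch2) in the laboratory mouse and between 0.926 (Notch3) and 0.983 (Jag2) in the spiny mouse.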

How the data were processed

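For each of 25 libraries the authors deposited a table of raw read counts for every gene symbol, neither normalized nor filtered. Reads were aligned to mm10 with STAR (2.6.1d in the study's methods and 2.4.1d in the submitters' processing notes) and counted with HTSeq 0.6.0 on RefSeq genes. The lab mouse libraries were strand-specific and the spiny mouse libraries were not. Each file held 24500 symbols, and 5 summary lines that name no gene were left out. CPM was computed from all gene rows.

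Groups came from the labels. The division of the WT center dermis libraries into sets of 2 and 3 followed the library names in the study's supplementary heatmaps. The 10 members, the pathway and marker lists and the tests were chosen with earlier results of these data known. All tests used edgeR 4.0.16 under R 4.3.3 (TMM, filterByExpr, quasi-likelihood test with the current dispersion estimate, prior count 0.125, Benjamini-Hochberg FDR under 0.05 over all tested genes). Standard errors were obtained by dividing a log2 fold change by the root of its F. Layers in the spiny mouse were compared with day as a covariate, and days against PWD0 in a fit of all 12 libraries by layer and day, except PWD21 dermis, fitted on its 4 libraries. The code was tested on simulated counts. No replicate pair agreed within sampling noise (lowest chi-square per degree of freedom 30.1 over 18 pairs).

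All 10 members were tested in every comparison unless the low-count filter removed them, and not every uncalled value is given. Of the pathway list, those called are named up to 4 per comparison, by size of the log2 fold change, and for likeness 3 genes per member with a mean of at least 1 CPM. Some genes selected by these rules are not reported here. Psenen levels were added after values were seen. Alternatives were DESeq2 1.42.0, RLE normalization, no low-count filter, other sets of libraries in the fit, each library left out in turn and, chosen after seeing the data, the older quasi-likelihood estimate and scaling without TMM. Exon lengths came from GENCODE annotation of mm10 and promoters from RefSeq.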

Additional observations from a re-analysis of the deposited data

How the results depend on the processing

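Of 114 differences of single Notch genes, 34 were called; under the settings other than leaving out a library, 183 of their 198 recomputed values stayed called and 15 fell short. Of the 468 values of uncalled differences, 430 stayed uncalled in the same direction, 23 became called and 15 turned their direction. When single libraries were left out, 167 of 192 values of called differences stayed called and 25 fell short, and none turned. The lone library that then remains in some arms is assumed to vary like the other groups. Scaling by library size without TMM and the edgeR 3 estimate of the spread were chosen after seeing the data. The causes of the changes given here were not tested.

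Without TMM, the log2 fold changes that turned were Notch1 in lab dermis, center against margin (-0.016), Notch3 in the center layer comparison (-0.14), Notch1 (-0.23) and Jag1 (-0.22) in the margin layer comparison, Notch3 (-0.37), Jag1 (-0.18) and Jag2 (-0.42) in spiny epidermis at PWD14 against PWD21, and Notch2 between the spiny layers (-0.061). Notch2 between the spiny layers also turned with DESeq2 (-0.023), RLE (-0.026) and the edgeR 3 estimate (-0.00073). Notch2 in lab dermis, center against margin, turned with all lab libraries in one fit (0.32) and with all 5 WT center libraries (0.36), and the layer by region difference of Jag1 turned with DESeq2 (-0.18) and RLE (-0.18).

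Leaving out 1 library turned further uncalled genes, whose log2 fold changes then ranged as follows. In lab epidermis, center against margin, Notch1 ranged from -0.037 to 1.05, Jag1 from -0.61 to 0.12, Jag2 from -0.27 to 0.99 and Dll1 from -0.67 to 0.17. In lab dermis, Notch1 ranged from -0.29 to 0.54, Notch2 from -0.22 to 0.22, Notch3 from -0.036 to 0.49, Dll1 from -3.38 to 0.21 and Hey1 from -1.91 to 0.94. Between KO and WT dermis, Jag1 ranged from -1.01 to 0.079, Jag2 from -2.59 to 0.18, Dll4 from -0.34 to 1.05 and Hey1 from -0.18 to 1.18. Notch1 between the margin layers ranged from -0.15 to 1.07. For the layer by region difference, Notch1 ranged from -0.13 to 1.15, Notch3 from -0.086 to 0.50, Jag1 from -0.30 to 0.38 and Dll1 from -0.53 to 3.03. In spiny epidermis, PWD14 against PWD21, Notch3 ranged from -0.38 to 0.61, Jag2 from -0.095 to 0.33 and Dll1 from -0.39 to 0.14. In spiny dermis, PWD21 against PWD0, Notch1 ranged from -1.22 to 0.0030, Notch3 from -0.89 to 0.97, Jag1 from -0.51 to 0.19, Jag2 from -0.53 to 0.52, Dll4 from -0.97 to 0.95 and Hey1 from -0.42 to 1.0. Between the spiny layers, Notch2 ranged from -0.81 to 0.35 and Notch3 from -0.17 to 0.50. Against PWD0, Hey1 ranged from -1.97 to 0.76 and Hes1 from -0.31 to 0.14 in spiny epidermis at PWD14 and PWD21, respectively, and Dll4 from -0.69 to 1.06 and Hey1 from -0.97 to 0.52 in spiny dermis at PWD14.

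Under settings other than leaving out a library, the number of genes called among all genes moved by over 1.5 times in 4 comparisons. Lab epidermis, center against margin (176 genes), gave 0 with the edgeR 3 estimate, 1511 with DESeq2 and 397 with all lab libraries in one fit. Lab dermis (125 genes) gave 54 with the edgeR 3 estimate, 738 with DESeq2 and 323 with all 5 WT center libraries. KO against WT (8 genes) gave 2 with the edgeR 3 estimate, 787 with DESeq2, 444 with all lab libraries and 190 with all 5 WT libraries. The layer by region difference (540 genes) gave 1125 with DESeq2. With 1 library left out, the counts ranged from 70 to 7405 in lab epidermis, 19 to 241 in lab dermis, 1 to 3353 for KO, 5054 to 7885 between the center layers, 4508 to 7623 between the margin layers and 167 to 1343 for the layer by region difference. In the spiny mouse they ranged from 3470 to 6635 (epidermis, PWD14 against PWD21), 1311 to 5118 (dermis, PWD21 against PWD0), 368 to 379 (epidermis, PWD21 against PWD0, where 1830 genes were called with all libraries), 4158 to 4361 (epidermis, PWD14 against PWD0), 3210 to 4284 (dermis, PWD14 against PWD0) and 6292 to 8623 (layers).

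Without TMM, the split of calls into higher and lower changed from 4024 and 3753 to 2304 and 5834 between the center layers, from 3126 and 4015 to 1599 and 6192 between the margin layers, and from 3011 and 2991 to 1335 and 5721 in spiny epidermis at PWD14 against PWD21. The median log2 fold change of all genes shifted by -0.72, -0.82 and -0.55 in these comparisons, by -0.71 in spiny epidermis at PWD14 against PWD0 (2586 higher and 3053 lower became 1243 and 5626), by -0.18 at PWD21 against PWD0 (770 and 1060 became 466 and 1494) and by -0.24 in spiny dermis at PWD14 against PWD0 (1899 and 2346 became 1280 and 2739). RLE shifted the median of the layer by region difference by -0.15.

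No paired analysis was possible because the labels give no replicate numbers shared between groups. Few or no reads on Dll4, Notch4 and Hey1 in most epidermis libraries limit the precision of their values there, and groups of 1 or 2 libraries limited all tests.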
